A study of Drosophila melanogaster with 2 samples.

Results

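Of 6840 conservative binding peaks of a Ptx1-eGFP fusion protein in whole Drosophila melanogaster embryos, 1270 (18.6%) had their summit just upstream of a single protein-coding gene on an autosomal arm. They were chosen by position alone. The summit had to lie on 2L, 2R, 3L or 3R, between 0 and 1000 bp upstream of the nearest coding transcription start in the Ensembl annotation. Peaks in or within 100 bp of a head-to-head gene pair, meaning starts of 2 coding genes that point away from each other at most 1000 bp apart, were set aside, which removed 781 further upstream peaks. The 1270 peaks were 23.5% of the 5402 conservative peaks on these arms, beside 905 peaks at such divergent promoters, 435 peaks within 1000 bp downstream of a start, and 2792 peaks farther from any coding start. The chromatin came from embryos of 0 to 24 h of a transgenic strain whose insertion carries Ptx1 fused to enhanced green fluorescent protein (eGFP). Both biological replicates form 1 group with the same genotype, age and precipitation, so no condition is compared with another. The labels' description names an antibody against GFP and the antibody field names Ptx1. Chromatin had been sonicated to 200 to 800 bp. Peaks pool all tissues and stages of the collection, and a control experiment that the labels name was not analysed here. Read depth is unknown, since peak lists hold no read totals.

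Ptx1 is a paired-like homeodomain protein of the Pitx family with a lysine at the position of the homeodomain that reads the bases after the TAAT core, as in Bicoid, and such proteins are known to prefer TAATCC. In the fly embryo Ptx1 is known from the midgut, the nervous system and muscles. Core promoters in flies fall into types known for different genes: those with the DNA replication-related element (DRE), bound by DREF and BEAF-32, Ohler motif 1, bound by M1BP, or Ohler motif 7 are common at broadly expressed genes, while TATA boxes and initiators are common at genes of restricted expression. Head-to-head pairs are rich in the first kind, so peaks at single genes allow upstream DNA to be read with 1 gene on its downstream side.

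The sequences that the motif results turn on are shown first, as windows that extend 50 bp to each side of a summit, read 5′ to 3′ on the strand of the gene, from the RefSeq copy of dm6 (Release 6). Capitals mark the motif named for each set, on either strand. For the lysine-type homeodomain core TAATCC, which reads GGATTA on the other strand, the windows are those of CG14100 (chr3L:19590569-19590669, minus strand), whose peak had the highest score of the 1270, and of papi (chr2L:2221734-2221834, plus strand), a Tudor-domain partner of Piwi proteins. The window at Ptx1 itself (chr3R:30912533-30912633, plus strand) held no TAATCC.
CG14100: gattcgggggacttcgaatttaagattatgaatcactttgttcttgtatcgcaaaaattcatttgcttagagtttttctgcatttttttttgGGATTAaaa
papi: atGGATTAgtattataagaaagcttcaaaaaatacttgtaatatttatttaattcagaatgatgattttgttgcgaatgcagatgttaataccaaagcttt
Ptx1: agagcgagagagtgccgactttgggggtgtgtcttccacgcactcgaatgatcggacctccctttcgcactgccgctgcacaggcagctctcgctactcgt
Core promoter motifs are shown by eEF1gamma (chr3R:29220091-29220191, plus strand), a subunit of translation elongation factor 1, and p53 (chr3R:23054078-23054178, minus strand), the DNA damage response factor, both with the DRE TATCGATA, and by Regnase-1 (chr3R:20036083-20036183, minus strand) with Ohler motif 7.
eEF1gamma: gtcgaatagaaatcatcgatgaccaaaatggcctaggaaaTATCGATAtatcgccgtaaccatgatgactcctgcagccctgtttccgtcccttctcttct
p53: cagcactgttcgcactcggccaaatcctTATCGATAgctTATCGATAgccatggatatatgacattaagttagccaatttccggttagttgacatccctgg
Regnase-1: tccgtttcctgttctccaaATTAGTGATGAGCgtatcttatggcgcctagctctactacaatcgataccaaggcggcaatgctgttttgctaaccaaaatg
Windows rich in A and T are shown by PAN3 (chr3L:3081400-3081500, plus strand), a subunit of a poly(A) nuclease, with the motif of the muscle factor Mef2, and by CG18549 (chr3R:12449117-12449217, plus strand) with the TATA box core TATAAA.
PAN3: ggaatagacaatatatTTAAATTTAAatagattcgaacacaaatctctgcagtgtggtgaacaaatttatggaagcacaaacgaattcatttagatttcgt
CG18549: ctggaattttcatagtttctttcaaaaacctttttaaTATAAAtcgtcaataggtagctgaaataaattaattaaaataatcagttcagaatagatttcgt

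The 8 windows differ in base content and in place. The window at eEF1gamma lay 31 bp upstream of the start and had a GC content of 45.5%, and that at p53 lay 46 bp upstream, had 44.6% GC and held the DRE 2 times. The PAN3 window lay 118 bp upstream, in an intron of the same gene, with 29.7% GC, and the CG18549 window lay 129 bp upstream in intergenic DNA with 23.8% GC. The core in the CG14100 window sat near its gene-side end and that in the papi window near its upstream end, neither of them at the summit. At Ptx1 the window had 60.4% GC.

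Summits were most frequent between 51 and 300 bp upstream of the start, where 671 of the 1270 (52.8%) lay. The median distance was 245.5 bp, with quartiles of 132 and 457 bp. Only 74 summits (5.83%) lay within 50 bp of the start and 221 (17.4%) within 100 bp, while 997 (78.5%) lay within 500 bp. The fullest 50 bp bin, from just over 100 to 150 bp, had 155 peaks. Distance was part of the rule and is given as a description. At the upper limit, the peaks just inside were at Oxp and Ptp99A (1000 bp each) and RabGGTa (999 bp), and those just outside at CG1142 (1003 bp), magu (1005 bp) and CG13924 (1009 bp). At the start itself, CG6028 (0 bp), cyst and Rab1 (1 bp each) lay just inside, and the summits at Atat, promL and Ufsp1 lay 1, 2 and 3 bp downstream.

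**Figure D1:**
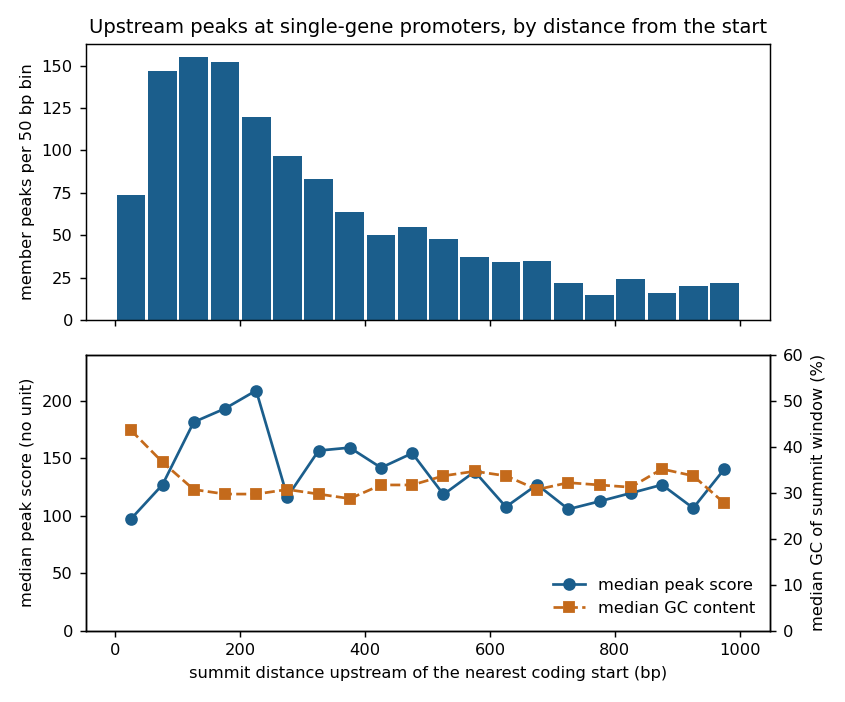
The upper panel counts the 1270 peaks in 50 bp bins of summit distance upstream of the nearest coding start, and the lower panel gives the median peak score (circles, left axis, no unit) and the median GC content of the summit window (squares, right axis, percent) per bin. Peak number is highest between 100 and 150 bp, median score between 200 and 250 bp, and GC content is highest in the bin next to the start.

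Peak strength, as the score that the authors deposited for each peak with no stated unit, did not run simply with distance. The median score was 97.2 for summits within 50 bp of the start, 181 between 100 and 150 bp, 209 between 200 and 250 bp and 116 between 250 and 300 bp. Across the 1270 peaks Spearman's rho between distance and score was -0.05, a description over peaks that share both libraries. The 427 peaks between 100 and 250 bp held the largest share of strong peaks: 41.9% were in the strongest 25% of all conservative peaks (exact Clopper-Pearson 95% interval 37.2 to 46.8). That share was 22.2% (16.9 to 28.2) among the 221 peaks within 100 bp, 28.9% (24.2 to 34.0) among the 349 between 250 and 500 bp and 24.5% (19.6 to 30.1) among the 273 farther out. The summit windows of the nearest class had a median GC content of 40.6%, against 29.7%, 30.7% and 31.7% in the classes farther out, and the part of base content in the scores was not tested. Over all 1270 the median score was 143 (quartiles 91.3 and 271), against 128 (86.0 and 229) over all conservative peaks. Intervals of shares cover the counting of peaks alone.

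Intergenic DNA held the largest share of the peaks. Of the 1270, 698 (55.0%) were intergenic, 373 (29.4%) lay in an intron of the same gene, upstream of one of its inner starts, and 98 (7.72%) in an intron of another coding gene. The 5′ untranslated region of the same gene, from a start farther upstream, held 26, the 3′ untranslated region of a neighbour 28, noncoding genes 30 and coding exons 9. The outermost start of the gene was the nearest for 832 peaks (65.5%). A noncoding RNA start was closer than the coding one for 43 peaks (3.39%), and 20 peaks were tied between genes that share a start. The coding gene on the upstream side ran in the same direction for 693 peaks (54.6%), with a median gap of 1262 bp. It pointed away, from more than 1000 bp, for 460 (36.2%) and overlapped for 117. Median scores in these settings were 137, 144 and 165. Among all autosomal coding genes, counted as genes and not as peaks, the shares were 38%, 15.3% and 14.5% in the same order. A further 32.1% of genes had a neighbour pointing away within 1000 bp, a setting that the rule sets aside. Leaving it out by itself raises the other shares, and that part in the differences was not tested.

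In all, 1073 genes had such a peak, which is 9.2% of the 11669 autosomal coding genes and the background for every gene count that follows. The share was 9.11% on 2L, 9.47% on 2R, 9.13% on 3L and 9.09% on 3R, a range narrower than any of the 4 exact 95% intervals, which together run from 8.04 to 10.6. These genes had a median length of 5892 bp, against 2088 bp for all autosomal coding genes, a median of 2 annotated starts against 1, and 5 exons against 3. Only 6.15% had a single exon, against 15.5% of all. Genes at downstream peaks were alike, with a median length of 6358 bp, 2 starts, 5 exons and 3.93% with a single exon, and those at divergent promoter peaks had a median length of 2476 bp. A gene with more starts has more upstream DNA that can hold a peak, and that part in the difference was not tested.

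Some genes carried several peaks. Of the 1073, 909 had 1, 140 had 2, 18 had 3, 3 had 4 and 3 had 5. The genes with 5 were Rtnl1, encoding a reticulon that shapes the endoplasmic reticulum, SNF4Agamma, the gamma subunit of AMP-activated kinase, and larp, encoding an RNA-binding protein of the La-related family. At Rtnl1 the peaks lay 227 to 739 bp upstream of their nearest starts, which were not all the same. Their scores ran between 71.5 and 1393. At SNF4Agamma they lay at 128 to 842 bp with scores between 97.0 and 373, and at larp at 131 to 670 bp with scores between 15.9 and 262. Over the 164 genes with more than 1 peak, the one with the shortest distance to its own start was the strongest in 85 (51.8%). Peaks of 1 gene can belong to different starts. The median smallest gap between summits was 260 bp, below the median peak width of 370 bp, so such peaks need not be separate sites.

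The strongest upstream peaks were at genes of varied function. First by score stood CG14100, a gene known by its annotation symbol (3L, 19590433 to 19590814), with 3315 in the conservative list, 1878 in replicate 1 and 1453 in replicate 2, 95 bp upstream. Its summit was intergenic, 249 bp from the neighbour running in the same direction. Second was eIF6, a factor of large ribosomal subunit assembly (2R, 23850226 to 23850581), with 2273, and 1347 and 944 in replicates 1 and 2, just over 100 bp upstream. HmgZ, a high-mobility-group chromatin protein (2R, 21703116 to 21703681), followed with 2160, and 1235 and 934 in the replicates, at 562 bp and in an intron of an overlapping gene.

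Fkbp14, a prolyl isomerase of the endoplasmic reticulum, had 1816 at 124 bp, with 975 and 852 in replicates 1 and 2. Sox14, a transcription factor of the ecdysone response, had 1771 at 248 bp, with 1023 and 760. Among the next were msi (Musashi, an RNA-binding protein of sensory organ lineages) with 1588, Sesn (sestrin, which restrains TOR signalling) with 1401, Rtnl1 with 1393, Hsp27 (a small heat shock protein) with 1377, gish (casein kinase 1 gamma) with 1360, aay (phosphoserine phosphatase) with 1279 and amon (a prohormone convertase) with 1231. All 25 strongest were in the thresholded lists of both replicates, and all 25 had the higher score in replicate 1. Their distances ran from 86 bp at MFS18 to 767 bp at mlt, the last of the 25 with a score of 1227.

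Ptx1 itself had an upstream peak of middling strength. It lay at chr3R:30912398-30912767, with the summit in intergenic DNA 171 bp upstream of the outermost start, and scored 123, rank 3597 of 6840. The replicate scores were 53.5 in replicate 1 and 66.4 in replicate 2, and both thresholded lists held it. The next gene on its upstream side pointed away from a start 10593 bp off. Its replicate 2 score was the higher one, which held for the minority of the peaks.

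Both replicates contained most of the peaks. A thresholded peak with its summit within 100 bp was found in both replicates for 774 of the 1270 (60.9%, exact Clopper-Pearson 95% interval 58.2 to 63.6), in replicate 1 alone for 161, in replicate 2 alone for 93 and in neither for 242. Median conservative scores in these 4 sets were 233, 102, 97.6 and 68.4. In the longer ranked lists of the replicates, 1136 of the 1270 (89.4%) had a peak in both. Over these 1136 the median score was 90.5 in replicate 1 and 71.8 in replicate 2, and replicate 1 was higher in 924 (81.3%). The log2 ratio of replicate 1 to replicate 2 had a median of 0.30 (SD 0.38 over peaks), against 0.31 (SD 0.39) over all 4885 autosomal conservative peaks found in both. It was 0.39 at divergent promoter peaks and 0.28 at downstream peaks. On the log10 scale Pearson's r between the replicates' scores was 0.94 and Spearman's rho 0.91. The conservative list was selected on the replicates, which builds likeness into these values. Only 44 peaks (3.87%) differed by more than 2 times.

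**Figure D2:**
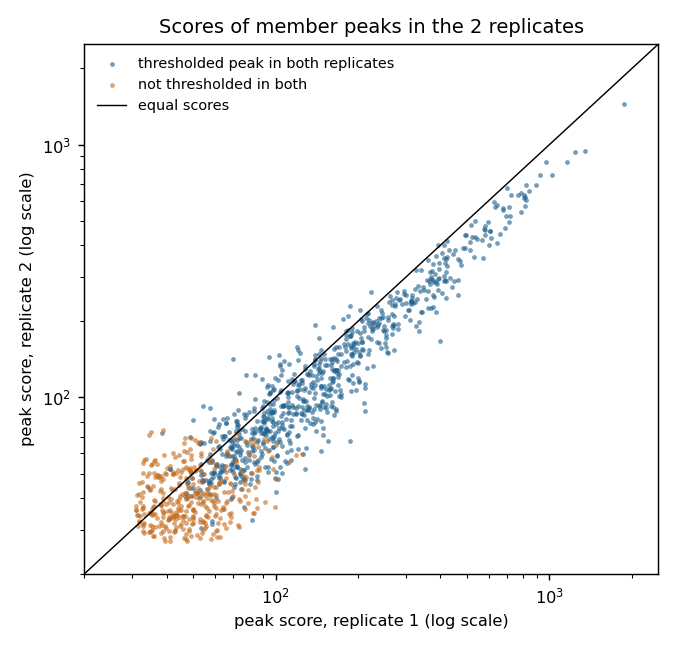
Each point is 1 of the 1136 upstream peaks with a ranked peak in both replicates, with the score in replicate 1 on the horizontal and in replicate 2 on the vertical axis, both log scales without a unit; the line marks equal scores. Most points lie below the line, as replicate 1 was higher in 924, and peaks not thresholded in both replicates gather at low scores.

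The upstream peaks were less often strong than those at divergent promoters, and less often weak than those just downstream of starts. In the strongest 25% of all conservative peaks were 396 of 1270 upstream peaks (31.2%), against 351 of 905 divergent promoter peaks (38.8%), an odds ratio of 0.715 (two-sided Fisher's exact test, adjusted p = 0.00037 over 6 tests). Without replicate 1, in the list of replicate 2 alone, the odds ratio was 0.864 and no longer passed (unadjusted p = 0.162, Fisher's exact test). The weakest 25% held 20.9% of upstream and 14.4% of divergent peaks (odds ratio 1.57, adjusted p = 0.00029, Fisher's exact test). Thresholded in both replicates were 60.9% of upstream and 70.1% of divergent peaks (odds ratio 0.667, adjusted p = 7.32e-05, Fisher's exact test). That measure follows the score: by score class, each 25% of conservative peaks, it held for 99.7%, 86.4%, 34.3% and 3.40% of upstream peaks from strongest to weakest. These comparisons are therefore not independent of each other. The tests take peaks as units although all share 2 libraries, so the p-values are smaller than biological replication would give.

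Single-gene upstream peaks lay farther from a start than divergent promoter peaks, with medians of 245.5 and 91 bp, and the shares were also read within classes of distance. Within 100 bp upstream, 51.1% of 221 single-gene peaks (44.3 to 57.9) and 64.8% of 383 divergent ones (59.7 to 69.5) were thresholded in both replicates. Between 100 and 250 bp the shares were 72.1% of 427 (67.6 to 76.3) and 79.6% of 373 (75.2 to 83.6). Between 250 and 500 bp the order turned, with 59.0% of 349 (53.7 to 64.2) and 40% of only 25 divergent peaks (21.1 to 61.3). The intervals of the 2 sets did not overlap within 100 bp and overlapped in the 2 classes farther out. These distance classes were chosen after the data were seen and were not tested.

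Compared with the 435 peaks just downstream of starts, upstream peaks were less often in the weakest 25%, at 20.9% against 29.7% (odds ratio 0.625, adjusted p = 0.00037, Fisher's exact test). Their share in the strongest 25%, 31.2% against 26.7%, missed the threshold (odds ratio 1.25, adjusted p = 0.079, Fisher's exact test). Thresholded in both replicates were 60.9% of upstream and 55.2% of downstream peaks (odds ratio 1.27, adjusted p = 0.0436, Fisher's exact test). That last difference reversed to an odds ratio of 0.975 among peaks with a scaled irreproducible discovery rate (IDR) score of 1000. This is the cap of the score, held by the most reproducible peaks. The difference also did not pass when summits had to match within 50 bp (odds ratio 1.19).

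Summit DNA was rich in A and T relative to its surroundings. The mean GC content of the summit window was 33.7% ± 10.1 (SD over 1270 peaks), against 40.7% ± 10.5 in an equal window 500 bp farther upstream and 45.8% in one 500 bp toward the gene. For the 78.5% of peaks within 500 bp of the start, the gene-side window was centred at or past the start. The median was 31.7% at summits, against 36.6% in windows 246 bp upstream of autosomal coding genes without a peak in the set. In 50 bp steps the content fell to 32.7% just upstream of the summit and reached 46.3% on the gene side. This contrast accompanies every motif comparison with the flank, and its part in them was not tested.

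Against the window 500 bp farther upstream, 9 of 22 motifs differed (40.9%; exact McNemar test over peaks, two-sided, adjusted over the 22), 7 more frequent at summits and 2 less. The flank window always lay farther from the start than the summit window. At autosomal coding genes without a peak in the set, windows 65 bp upstream held the DRE in 4.67% and windows 678 bp upstream in 0.444%. Ohler motif 7 was in 3.43% and 0.831% there, TATAAA in 23.7% and 11.6%, and GAGAG in 12.9% and 10.5%. The part of distance in the flank comparisons was not tested. Core promoter motifs were rare. The DRE, TATCGATA, was in 21 summit windows (1.65%) and 1 flank window (adjusted p = 6.03e-05, exact McNemar test). The windows of Ohler motif 1, GGTCACAC, numbered 13 and 1 (adjusted p = 0.00671), and those of Ohler motif 7, searched by its consensus, 38 and 8 (adjusted p = 6.03e-05, both exact McNemar). The core of the DRE, ATCGAT, which every DRE contains, was in 4.65% of summit and 2.68% of flank windows (adjusted p = 0.0331, exact McNemar test). Ohler motif 7 did not pass without replicate 1 (adjusted p = 0.0574), nor the DRE core without replicate 2 (adjusted p = 0.239, both exact McNemar).

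Motifs rich in A and T formed the other group of increases. TATAAA was in 23.3% of summit and 14.6% of flank windows (adjusted p = 1.07e-06, exact McNemar test). The Mef2 motif was in 7.56% and 2.91% (adjusted p = 1.77e-06), and the caudal and Abd-B type core in 19.1% and 15.4% (adjusted p = 0.0399, both exact McNemar). Of the 96 summit windows with the Mef2 motif, 48 also held TATAAA. Less frequent at summits were GAGAG, the element of GAGA factor, at 9.13% against 13.9% (adjusted p = 0.00118), and the repeat CACACACA, at 0.866% against 2.05% (adjusted p = 0.0491, both exact McNemar). The repeat did not pass with either replicate left out (adjusted p = 0.12 without replicate 1 and 0.0873 without replicate 2, exact McNemar test). With the flank 1000 bp away 4 of 22 differed, the DRE, TATAAA, Ohler motif 7 and the Mef2 motif. The other 5, GAGAG among them (0.899 windows with it at the summit alone for each at the flank alone, adjusted p = 0.535, exact McNemar test), did not pass. GAGAG also missed the threshold in windows of 100 bp to each side (0.875 likewise, adjusted p = 0.299, exact McNemar test).

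The lysine-type core did not set the summits apart from the flank. TAATCC was in 62 summit windows (4.88%, 3.76 to 6.21) and 53 flank windows (4.17%, 3.14 to 5.42), with an adjusted p of 0.645 (exact McNemar test). The weaker core TAAGCC was in 4.49% and 3.86%, and the letters of TAATCC written backwards, CCTAAT, in 4.41% and 4.25%. TAATTA, the core of Antennapedia-type homeodomains, was in 9.84% and 7.80% (adjusted p = 0.179, exact McNemar test). Peaks with TAATCC had a median score of 155, against 142 for those without. Beyond CG14100 and papi, CG4496 had a TAATCC window and a strong peak, with scores of 1436 in the conservative list, 810 in replicate 1 and 618 in replicate 2. Its core too lay near an end of the window, the upstream one.

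**Figure D3:**
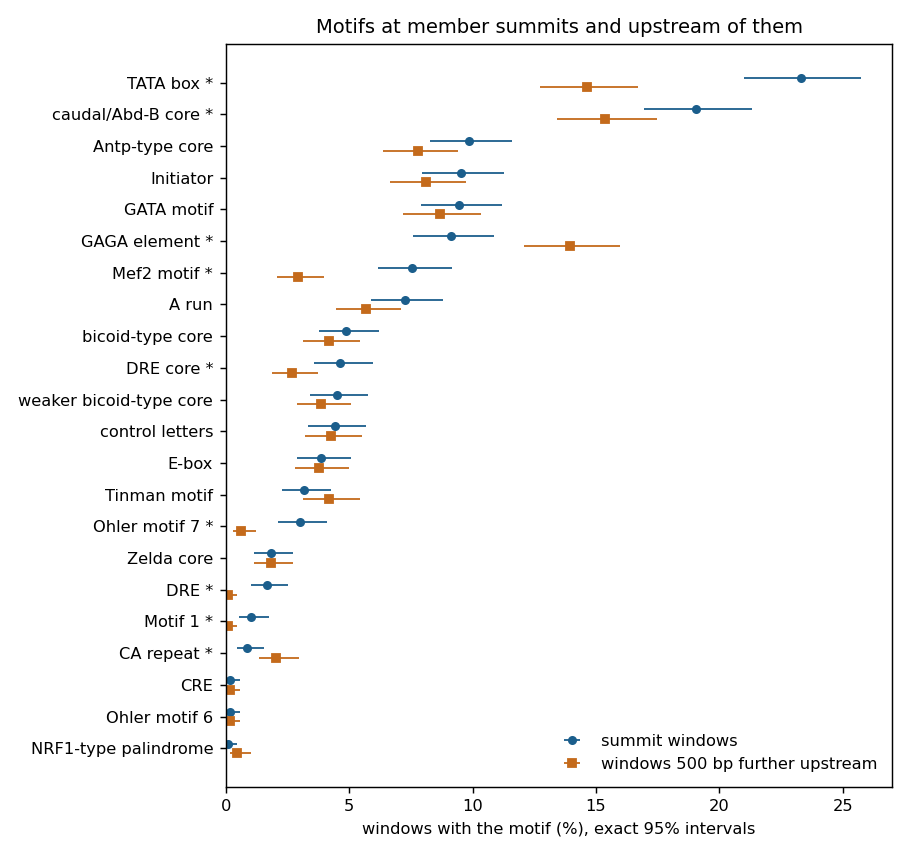
For each of the 22 motifs, the circle gives the share of 1270 summit windows with it and the square the share of windows centred 500 bp farther upstream, in percent, with exact 95% intervals; asterisks mark an adjusted p below 0.05. The TATA box and the Mef2 motif lie right of their flank values and the GAGA element left of it, while the bicoid-type core (4.88% and 4.17%) has overlapping intervals.

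Core promoter motifs differed less between the peaks and other promoters than between the peaks and the flank. Windows were placed 246 bp upstream of the outermost start of the 10596 autosomal coding genes without a peak in the set, and matches there are a description. These genes were not filtered for head-to-head pairs or for peaks of other classes. Over all autosomal coding genes, 32.1% had an upstream neighbour pointing away within 1000 bp. The part of such genes in the shares was not tested. The DRE was in 1.65% of summit windows and 1.23% of these, Ohler motif 1 in 1.02% and 1.15%, and Ohler motif 7 in 2.99% and 2.11%. Any of the 3 was in 5.35% and 4.30%. TATAAA was in 23.3% and 17.9%, the Mef2 motif in 7.56% and 5.79%, and TAATCC in 4.88% and 3.47%. GAGAG was in 9.13% and 9.65%. The DRE core was in 4.65% and 4.80%, the caudal and Abd-B type core in 19.1% and 17.7%, TAATTA in 9.84% and 8.96%, TAAGCC in 4.49% and 4.21%, CCTAAT in 4.41% and 3.78%, and CACACACA in 0.866% and 1.16%. The windows at other genes were all at outermost starts, while 438 of the peaks were at inner starts. At inner starts the DRE was in 0% and Ohler motif 7 in 1.37% of summit windows. At the 832 outermost starts they were in 2.52% and 3.85%. The part of start type in these shares was not tested.

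The DRE and Ohler motif 7 were most frequent at the peaks closest to starts, and at other coding genes they were also most frequent nearest the start. Within 100 bp, 17 of 221 windows (7.69%, exact interval 4.54 to 12.03) held the DRE. At the same other coding genes, head-to-head ones included, the share at 65 bp was 4.67%. Between 100 and 250 bp 3 of 427 did (0.703%), against 1.16% of other genes, and beyond 500 bp 0 of 273, which allows a share of up to 1.34%. Ohler motif 7 was in 25 of the 221 nearest windows (11.3%, 7.46 to 16.2), against 3.43% at other genes. Farther out it was in 2.11%, 1.15% and 0% of the peak windows, against 1.42%, 1.59% and 0.831% at other genes. Ohler motif 1 and the E-box CAGCTG were also most frequent there, while the initiator was not. Ohler motif 1 was in 5 of the 221 nearest windows (2.26%) and in 8 farther out (0.937%, 1.15% and 0% by class). At other genes its share was 2.24% at 65 bp, and 0.510%, 0.849% and 0.255% in the classes farther out. The initiator was in 11.3%, 7.03%, 9.46% and 12.1% from the nearest class to the farthest. The E-box CAGCTG was in 10.4% of the nearest windows (6.71 to 15.2), against 6.80% at other genes. Farther out it was in 1.64%, 2.87% and 3.30% of the peak windows by class, against 3.89%, 3.96% and 4.46% at other genes. GC content in the nearest class was alike, with a mean of 40.3% in the peaks and 39.3% at the other genes.

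TATAAA showed the opposite order. It was in 13.1% of the windows within 100 bp (8.97 to 18.3), against 23.7% at other coding genes. In the next classes out it was in 26.0%, 24.6% and 25.6% of windows, against 20.3%, 16.3% and 11.6% at other genes. In those 3 classes the mean GC content of the peaks was 31.6%, 32.0% and 33.9%, against 35.9%, 39.2% and 43.7% at other genes. Summits whose windows held TATAAA lay at a median of 267.5 bp from the start, and whether any of these matches works as a TATA box was not tested.

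**Figure D4:**
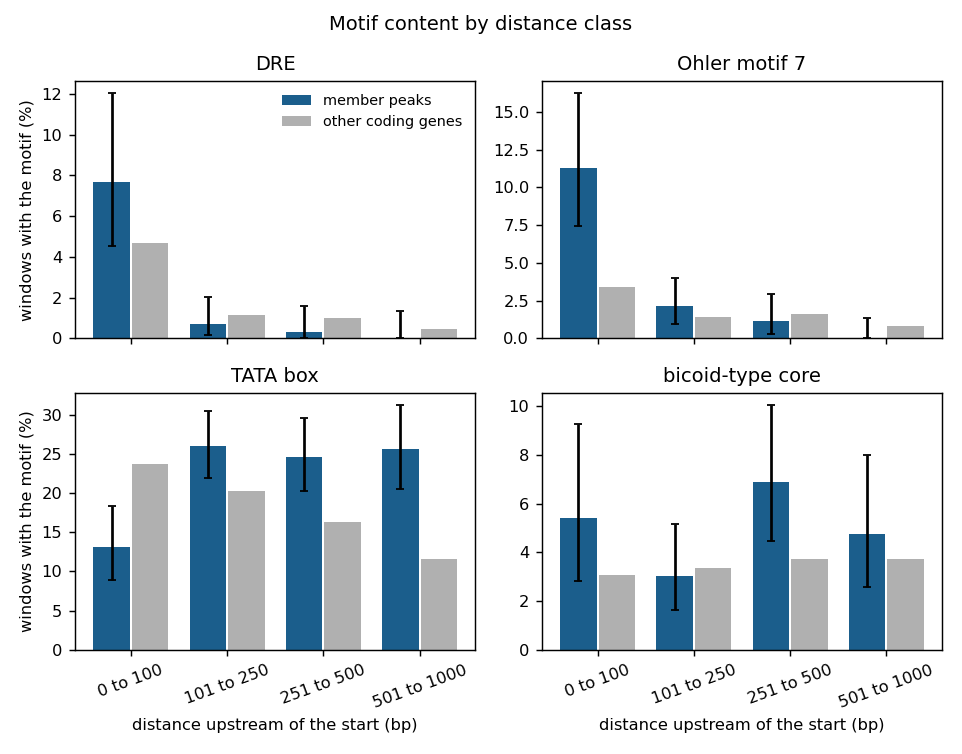
For 4 motifs, the bars give the share of windows with the motif (percent) in 4 classes of distance upstream of the start, for the peaks at their summits (left bar, with exact 95% intervals) and for other coding genes at the median distance of the class (right bar). The DRE and Ohler motif 7 are most frequent within 100 bp (7.69% and 11.3% of the peaks), and the TATA box is least frequent there (13.1%). At other coding genes the DRE and Ohler motif 7 are also most frequent there (4.67% and 3.43%), as is the TATA box (23.7%). The bicoid-type core is in 5.43%, 3.04%, 6.88% and 4.76% of the peaks from the nearest class to the farthest. At other coding genes it is in 3.08%, 3.35%, 3.72% and 3.72%.

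The genes behind the core motifs can be named. The strongest peaks with the DRE were at Alg3 (score 787, 64 bp), a mannosyltransferase of N-glycosylation, CG1827 (604, 121 bp), eEF1gamma (416, 31 bp), RpS29, a small-subunit ribosomal protein (247, 2 bp), Hs3st-A, a heparan sulfate sulfotransferase (201, 373 bp), and p53 (177, 46 bp). At eEF1gamma the replicate scores were 187 and 231 in replicates 1 and 2, and at p53 89.2 and 90.6. Those with Ohler motif 1 were led by eEF1alpha1, the main elongation factor 1 alpha (305, 68 bp), the homeotic gene Dfd (161, 331 bp) and Vha68-2, a proton pump subunit (154, 167 bp). Those with Ohler motif 7 were led by CAP (368, 467 bp), Regnase-1 (255, 77 bp) and larp (223, 131 bp). No summit window held both the DRE and Ohler motif 1, and 3 held the DRE and Ohler motif 7.

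Motif content also varied with strength. In the strongest 25% of conservative peaks, 11.1% of 396 windows held the Mef2 motif and 5.56% held GAGAG. In the weakest 25%, 5.66% of 265 held the Mef2 motif and 13.2% held GAGAG. Peaks with the Mef2 motif had a median score of 214, against 139 for those without, and peaks with Ohler motif 7 a median of 106, against 144. The median GC content ran along, at 28.7% in the strongest and 38.6% in the weakest 25%. The strongest windows with the Mef2 motif off 2R were at CG11857 (1421), tst, encoding an RNA helicase that aids the exosome (1143, with 690 and 469 in replicates 1 and 2), and PAN3 (1023, with 534 and 500).

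Compared with divergent promoter peaks, 3 of 22 motifs differed (13.6%; Fisher's exact test, two-sided, adjusted over both comparisons), and all 3 were less frequent in the upstream peaks. The DRE was in 1.65% against 4.75% (odds ratio 0.337, adjusted p = 0.00102), its core in 4.65% against 9.61% (0.458, adjusted p = 0.000335), and Ohler motif 7 in 2.99% against 5.86% (0.496, adjusted p = 0.0219, all by Fisher's exact test). By class of distance, which was not tested, the order varied. Within 100 bp upstream of the nearest start the DRE was in 7.69% of 221 single-gene windows (4.54 to 12.03) and 9.40% of 383 divergent ones (6.67 to 12.8), and Ohler motif 7 in 11.3% (7.46 to 16.2) and 9.40% (6.67 to 12.8). Between 100 and 250 bp the DRE was in 0.703% of 427 single-gene and 0.536% of 373 divergent windows, Ohler motif 7 in 2.11% and 1.88%, and the DRE core in 1.64% (0.662 to 3.35) and 4.29% (2.47 to 6.87). Between 250 and 500 bp, with 349 single-gene and 25 divergent windows, the DRE was in 0.287% (0.00725 to 1.59) and 4% (0.101 to 20.4), and Ohler motif 7 in 1.15% (0.313 to 2.91) and 8% (0.984 to 26.0). Without replicate 1 neither the DRE nor Ohler motif 7 passed against divergent peaks (adjusted p = 0.0608 and 0.189, Fisher's exact test). When each gene was given its outermost start alone, 0 of 22 motifs differed. Against downstream peaks 0 of 22 differed (0%; Fisher's exact test), with 2 at an unadjusted p under 0.05.

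Among gene groups, 3 lists of developmental genes had the largest shares, beside the background of 9.2%. They are given as counts with exact 95% intervals, and the median score over the strongest peak of each gene stands beside 143 over all 1270 peaks. The neural list had 7 of 17 genes (41.2%, 18.4 to 67.1), with a median of 84.7. Its strongest peak was at brat, a growth regulator of neural stem cells, with a score of 764 and 412 and 355 in replicates 1 and 2. It was followed by grh, the Grainyhead factor (139, with 69.2 and 63.9), scrt (107), Ddc, the enzyme that makes dopamine (84.7), SoxN (73.2), pros (61.6) and insc (17.0). Of the 7, only brat and grh were thresholded in both replicates, so the count rests mostly on weak peaks.

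The mesoderm and muscle list had 7 of 22 (31.8%, 13.9 to 54.9), with a median of 170. Leading them was tin, the heart and visceral mesoderm homeobox gene Tinman, with 761 and 416 and 340 in replicates 1 and 2, at 218 bp. Next came sls, which encodes the titin-like protein of muscle (474, with 279 and 196), rols, a myoblast fusion adaptor (264), Act87E, a muscle actin (170), and htl, the fibroblast growth factor receptor Heartless (156). Here 6 of the 7 were thresholded in both replicates, Tm1 (106) being the exception.

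The segment polarity and signalling list had 7 of 24 (29.2%, 12.6 to 51.1), with a median of 401. Mad, the signal transducer of the Dpp pathway, scored 702, with 440 and 273 in replicates 1 and 2. The epidermal growth factor receptor pathway gave spi, its ligand Spitz (659, with 369 and 299), aos, its secreted inhibitor Argos (401, with 227 and 187), and the Ets factors aop (284) and pnt (160). The Wnt antagonist nkd had 425, with 204 and 221. The weakest was tkv, a Dpp receptor, with 90.3.

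In the list named for head and lysine-type homeobox genes, which also holds the paired-box gene Poxm, 5 of 19 had a peak (26.3%, 9.15 to 51.2). They were Poxm itself (515, with 334 and 182 in replicates 1 and 2), PHDP (356, with 192 and 158), bcd (330, with 198 and 138), Ptx1 (123) and so (85.1, with no ranked peak in replicate 1). Of gap and pair-rule genes 1 of 15 had a peak, cad with 73.8. DNA replication and cell cycle genes had 5 of 30 (16.7%, 5.64 to 34.7), led by Dp, the partner of E2F (714, with 413 and 303), and CycE (337, with 189 and 159). Of 16 germline and maternal genes 2 had one, bcd and pum (328).

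Among lists of housekeeping genes, the interval of mitochondrial ribosomal protein genes alone excluded the background of 9.2%, and the other 6 held it. Cytosolic ribosomal protein genes had 9 of 72 (12.5%, 5.88 to 22.4), led by RpL23A (569, with 315 and 253 in replicates 1 and 2) and RpS29 (247, with 166 and 88.0), and their median distance was 52 bp. Mitochondrial ribosomal protein genes had 0 of 62, for which the exact interval allows up to 5.78%. Oxidative phosphorylation genes had 3 of 77 (3.90%, 0.811 to 11.0), and proteasome genes 2 of 42 (4.76%, 0.582 to 16.2). V-ATPase and aminoacyl-tRNA synthetase genes had 2 of 31 each (6.45%, 0.791 to 21.4). Translation initiation factor genes had 2 of 36 (5.56%, 0.680 to 18.7), one of them eIF6. A head-to-head start removes a gene by the rule: 27 of the 72 cytosolic and 17 of the 62 mitochondrial ribosomal protein genes were nearest to a divergent promoter peak instead.

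Of the remaining lists, the chemoreceptor genes lay below the background with their whole interval. They had 1 of 155 (0.645%, 0.0163 to 3.54), Ir94h with 72.9, and cuticle protein genes had 5 of 109 (4.59%, 1.51 to 10.4), an interval that holds the background, and Cpr65Ea (151) was the strongest. Heat shock genes had 3 of 23 (13.0%, 2.78 to 33.6), all small heat shock protein genes of 3L: Hsp27 (1377, with 815 and 572 in replicates 1 and 2), Hsp26 (342, with 161 and 189) and Hsp22 (194, with 112 and 91.4). Polycomb and trithorax group genes had 2 of 20, kis (91.3) and esc (82.4). Insulator and promoter-binding factor genes had 2 of 19, row (466, with 242 and 222) and BEAF-32 (302, with 160 and 134), the second a protein that binds the DRE. The lists were chosen with earlier results of these data known, so they carry no test, and genes with more starts or without a head-to-head neighbour have more chance to enter.

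**Figure D5:**
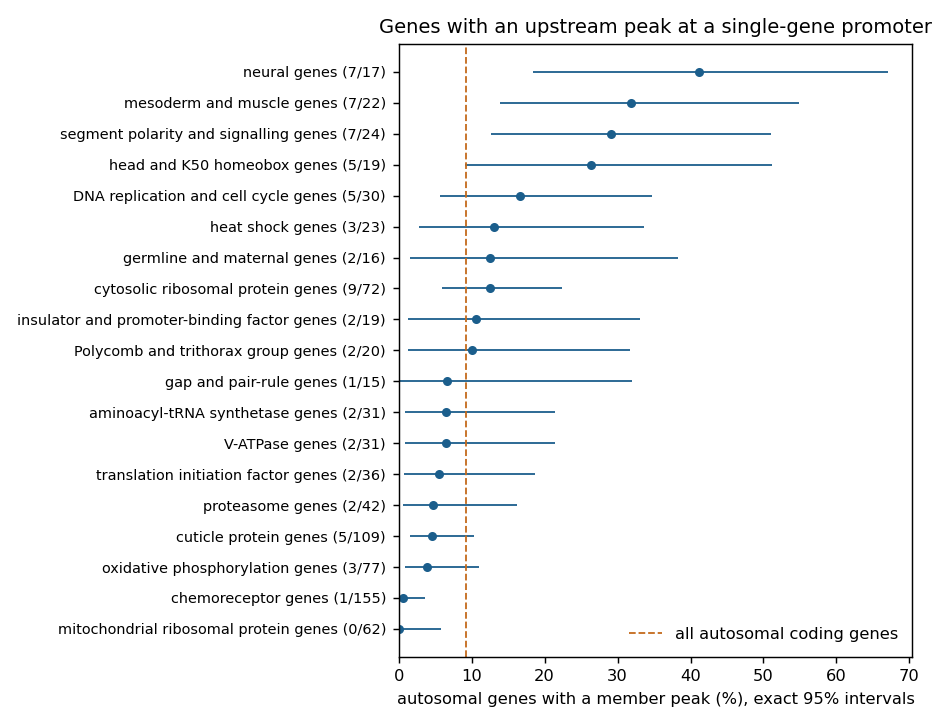
Points give the share of autosomal genes with an upstream peak at a single-gene promoter (percent) in each of 19 gene lists, with exact 95% intervals, the counts after each name, and the dashed line at 9.2% for all autosomal coding genes. The neural, mesoderm and muscle, and segment polarity and signalling lists lie above the line with their whole intervals, and the chemoreceptor and mitochondrial ribosomal protein lists below it.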

How the data were processed

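The deposited files are peak lists on dm6, per the labels, for 2 biological replicates of Ptx1-eGFP embryos and for the series, as ranked and thresholded lists after irreproducible discovery rate (IDR) analysis. Aligner and peak caller: not given in the sources used here. The deposited lists give each peak a peak-strength score with no unit, a scaled IDR score capped at 1000, and a −log10 q value that the authors' files give. In the conservative list the lowest scaled IDR was 830. Replicate 1 had 5480 thresholded and 68758 ranked peaks, and replicate 2 had 4825 and 44653. Read depth is unknown, and intervals cover counting alone.

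Summits were placed against starts of coding transcripts in Ensembl 115 (same assembly). Replicate scores came from each replicate's own ranked list, by the nearest summit within 100 bp, and not from the replicate-pair list as planned, since its columns name no sample. Classes were compared with Fisher's exact test and windows that extend 50 bp to each side of a summit with exact McNemar tests, both two-sided with Benjamini-Hochberg adjustment over 6 class tests, 22 flank motif tests and both motif class comparisons together, at a threshold of 0.05. Motifs were searched on both strands. Alternatives covered the peak list, each replicate alone, IDR, start, window, flank and match settings.

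The set, the lists and the motifs were chosen with earlier results of these data known. Named genes are the nearest coding genes of the 25 highest-score peaks (ties by −log10 q), up to 4 strongest per list, Ptx1, peaks nearest both distance limits, and the 3 strongest peaks off 2R per motif more frequent at summits. Others were named after their values were seen. The functions were tested on simulated data. Tables were handled with pandas 2.3.3 and numpy 2.4.6 in Python 3.11.15, tests run with scipy 1.17.1 and figures drawn with matplotlib 3.10.9.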

Additional observations from a re-analysis of the deposited data

How the results depend on the processing

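The number of upstream peaks was 1328 in the other thresholded list, 965 to 1053 with 1 replicate left out, 922 with the outermost start alone, and 1092 with head-to-head pairs up to 2000 bp. The share thresholded in both replicates (60.9%) was 67.0% at a scaled IDR of 1000, 65.3% with an overlap of 1 bp, 51.1% with 50% reciprocal overlap and 54.7% with summits within 50 bp. With 1 replicate left out it was 68.3% to 73.6%, as 1 list has to match in place of 2. Against downstream peaks its odds ratio was 0.975 at a scaled IDR of 1000 (p = 0.897) and 1.19 with summits within 50 bp (p = 0.119, both exact Fisher, unadjusted). The odds ratio for the strongest 25% against divergent peaks was 0.749 without replicate 2 and 0.864 without replicate 1, which missed the threshold. Against downstream peaks it passed in the other list (1.36) and with a 500 bp upstream window (1.35). Of 22 motifs, 4 differed from a flank 1000 bp away. Against divergent peaks 0 differed with the outermost start and 8 with windows of 100 bp either side, and against downstream peaks 5 did with those windows. The odds ratio of TAATCC against downstream peaks, 0.919, was 1.04 in the other list, 0.907 without replicate 2 and 1.42 without replicate 1, called in none of them. The cause of these changes was not tested. The DRE, the TATA box and the Mef2 motif kept their calls against the flank in all 11 alternatives, while Ohler motif 7 lost its call without replicate 1 (p = 0.0574, exact McNemar), Ohler motif 1 with the gene-side flank (p = 0.141) and the 1000 bp flank (p = 0.212), the caudal type core and CACACACA in 5 of 11 each, the DRE core in 3 and GAGAG in 2 (1000 bp flank and 100 bp windows). No paired analysis was possible because both samples belong to 1 group.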
